A study of Arabidopsis thaliana with 10 samples.

Results

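The genes described here are those whose RNA stood higher in rosette leaves of the Arabidopsis thaliana line ex2/flu than in wild type and in flu, without being raised 2-fold in flu itself. They were chosen from measured values. On the log2 scale, with the difference d taken as a genotype's mean minus the wild type mean, a probe set had to have an ex2/flu mean of at least 8.68, both ex2/flu arrays above both wild type and both flu arrays, d of at least 1 in ex2/flu and d below 1 in flu. Of 22746 probe sets of genes on the array, 7133 reached the level, 857 of these had the ex2/flu arrays above the others, 152 of these reached d of 1 in ex2/flu, and 48 of these were below 1 in flu. Leaving out THI2.1, PDF1.2 and XTH19 by symbol, as the rule asks, gave 45 members. PDF1.2b, a separate symbol, was kept.

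RNA was measured on ATH1 arrays, 2 per genotype, each of pooled rosette leaves of 5 mature plants. Besides wild type Columbia there were the triple mutant ex1/ex2/flu, the double mutants ex2/flu and ex1/flu, and flu, so that every mutant line carried flu, brought into Col-0 by 5 backcrosses of the Landsberg erecta mutant flu1-1. ex1 and ex2 were T-DNA insertions, 1 insertion line each (SALK 002088 in EX1 and SALK 012127 in EX2), so each line rests on a single allele, and no line lacking an EXECUTER gene without flu was among the samples. Every plant, wild type included, grew without a night at 100 µmol m-2 s-1, was put into darkness for 8 h as bolting began and was harvested 30 min into the light, so that no array shows the state before light returned. In such bulk samples fewer cells of a type and less RNA per cell cannot be told apart.

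FLU holds back the synthesis of protochlorophyllide, a chlorophyll precursor, in the dark. Without it the precursor builds up, and on return to light it passes energy to oxygen, so that singlet oxygen forms inside the plastid. EXECUTER1 and EXECUTER2 are related plastid proteins through which this singlet oxygen alters the activity of nuclear genes, many of them genes of stress and defence. The members here are genes with more RNA in the line without EX2 than in flu.

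Across the 14435 tested probe sets, the correlation of the 2 arrays of a genotype was 0.973 to 0.985. The EX1 probe set stood at log2 signals of 7.95 and 7.88 in ex1/flu and 7.53 and 7.81 in ex1/ex2/flu, against 9.13 to 9.59 on the other 6 arrays. FLU and EX2 were not analysed here. Of 9 leaf markers 2 were measured, and RCA, the activase of Rubisco, lay between 13.90 and 14.36 on every array. LHCB4.2, an antenna protein of photosystem II, had log2 means of 13.96 in wild type and 13.99 in ex2/flu. In flu it stood at 12.95, in ex1/flu at 12.81 and in ex1/ex2/flu at 12.89. It was thus higher in ex2/flu than in flu as the members are, but unlike them it was near wild type in ex2/flu. Its part in their values was not tested. LHCB4.2 lies on the chromosome of FLU, and whether Landsberg sequence remains there was not tested. None of the other tissues' markers could be read. In the annotation used, 0 of 8 flower and 0 of 4 root markers were measured by a probe set of their own. The controls added to the RNA before labelling (dap, phe and thr) set the arrays apart. Their mean log2 signal was 6.73 to 7.11 on wild type 1, flu 2, ex1/flu 2 and ex2/flu 2, and 7.42 to 7.94 on the other 6.

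Of the 45 members, 28 were assigned to 1 gene in the array annotation used, 2 to several genes and 15 were not listed there. Only the 28 are named below, with the addition of 2 unlisted probe sets. All 45 passed the filter on dim probe sets, which the minimum level brings about, and all lay above the level of that filter on every array. By the rule's own values, d in ex2/flu was 1.01 to 1.83 with a median of 1.21, and d in flu was -0.09 to 0.99 with a median of 0.74. The difference of ex2/flu from flu was 0.20 to 1.31, with a median of 0.53, and 3 members reached 1. Both ex2/flu arrays lay above both flu arrays for all 45, as required, and for 21.7% of all tested probe sets. These values selected the members and carry no test. For 36 of the 45 the flu mean was at least 0.5 above wild type, a value the rule also used.

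**Figure D1:**
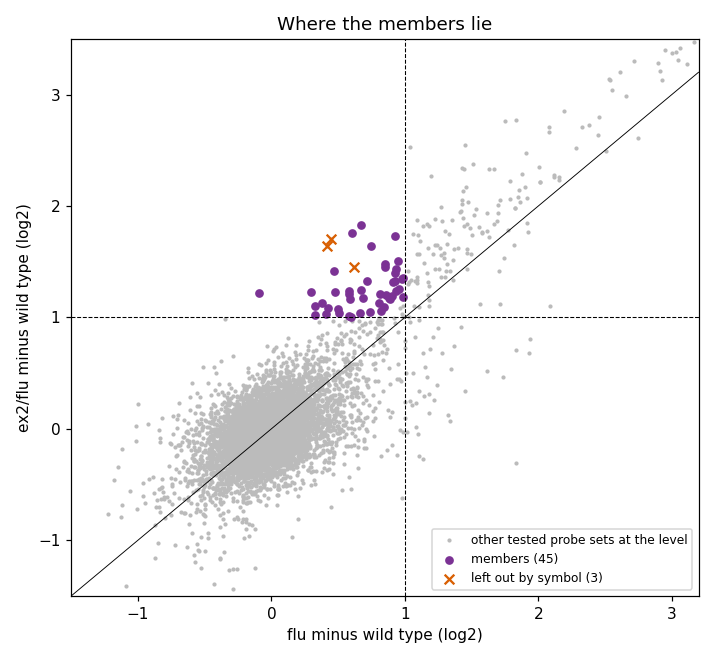
Difference from wild type of the mean log2 signal in flu (x axis) and ex2/flu (y axis), for tested probe sets that reach the minimum level in ex2/flu. Dashed lines mark the thresholds of 1 and the solid line equal differences. The 45 members fill the upper left field close to the flu threshold, AT4G33960 lies alone at a flu difference of -0.09, and 28 of the 7133 points lie beyond the axes and are not drawn.

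The threshold of 1 cut through a continuous range. AT4G34150 and ATPMEPCRB were just inside it in ex2/flu, at 1.01 and 1.02, and AT2G32190 and AT5G48655 just outside, at 0.99 and 0.97. In flu, AT2G36220 and AT5G59450 were just inside at 0.98 each, and AT1G78410 and AT5G65300 just outside at 1.04 and 1.06. Of the 3 left out by symbol, XTH19 (a cell-wall enzyme) had differences of 1.71 in ex2/flu and 0.45 in flu, THI2.1 (a thionin) of 1.64 and 0.42, and PDF1.2 (a defensin) of 1.45 and 0.61.

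The gene with the largest difference of ex2/flu from flu was AT4G33960, for which no role is given here. Its log2 signal was 7.79 and 7.41 in wild type, 7.49 and 7.52 in flu, 8.12 and 8.24 in ex1/flu, 8.75 and 8.88 in ex2/flu, and 8.09 and 7.71 in ex1/ex2/flu. It was the only member whose flu mean was below wild type, and ex2/flu stood 2.48-fold above flu. The ex1/flu arrays also lay above all flu and wild type arrays, and below those of ex2/flu. The gene lies 38 protein-coding genes from EX1 on chromosome 4 in the TAIR10.1 gene order, and AT4G34150 lies 60 genes from it. What part this position has in the values was not tested.

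AT5G17350, also without a role given here, stood at 7.14 and 6.77 in wild type and 7.62 and 7.64 in flu. In ex2/flu it reached 8.64 and 8.94, which is 2.23-fold above flu. The ex1/flu arrays were at 7.09 and 7.65 and those of ex1/ex2/flu at 6.70 and 7.14, overlapping wild type in both cases. The third member past 2-fold over flu was the unlisted probe set 257644_at. It read 7.68 and 7.26 in wild type, 7.59 and 8.56 in flu, 7.60 and 7.77 in ex1/flu, 9.15 and 9.32 in ex2/flu and 7.38 and 7.10 in ex1/ex2/flu. Its flu arrays lay almost a whole log2 unit apart, so its distance from flu depended on which flu array was taken.

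Among genes of defence and signalling, PDF1.2b encodes a defensin, a small antifungal peptide induced by jasmonate and ethylene together. Its signal was 9.51 and 10.14 in wild type, 9.94 and 10.64 in flu, 10.41 and 11.22 in ex1/flu, 11.49 and 11.00 in ex2/flu and 10.59 and 9.38 in ex1/ex2/flu. The ex1/flu and ex2/flu ranges overlapped, and the ex1/ex2/flu arrays were the farthest apart of any genotype. The suffix _x_at of its probe set marks probes that can also bind related transcripts, so PDF1.2b and PDF1.2 may not be separate measurements.

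PTI1-4, a kinase that acts with the oxidative-burst kinase OXI1, stood at 9.43 and 9.52 in wild type, 9.96 and 10.36 in flu, 10.29 and 9.80 in ex1/flu, 10.72 and 10.58 in ex2/flu and 9.86 and 10.08 in ex1/ex2/flu. TET8, a tetraspanin of the plasma membrane and of secreted vesicles, read 12.03 and 11.61 in wild type, 12.66 and 12.83 in flu, 12.04 and 12.30 in ex1/flu, 13.05 and 13.07 in ex2/flu and 11.71 and 11.52 in ex1/ex2/flu. PTI1-4 kept all mutant arrays above wild type, while TET8 in ex1/ex2/flu overlapped wild type. AT5G39670, which has the EF-hand motifs of calcium-binding proteins, was at 9.76 and 9.67 in wild type and 10.63 and 10.52 in flu. Its ex2/flu arrays were at 10.77 and 11.06, its ex1/flu arrays at 9.80 and 10.30, and its ex1/ex2/flu arrays, at 9.43 and 9.42, lay below those of wild type. AT5G12940, a leucine-rich repeat protein, and AT4G34150, with a lipid-binding C2 domain, had differences of ex2/flu from flu of 0.41 each. Over the 6 genes of this kind that difference was 0.31 to 0.95.

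Of the regulators, COR27 is a cold-induced gene that also acts in the circadian clock and in light signalling. It stood at 8.54 and 7.79 in wild type, 8.65 and 9.00 in flu, 8.50 and 8.67 in ex1/flu, 9.18 and 9.22 in ex2/flu and 8.23 and 7.81 in ex1/ex2/flu. Its wild type arrays were 0.75 apart, wider than the gap from flu to ex2/flu. AT5G66070, with the RING finger typical of ubiquitin ligases, was 0.57 above flu in ex2/flu, and AT5G59450, of the GRAS family of transcriptional regulators, 0.37.

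ATPMEPCRB (AT4G02330), a pectin methylesterase that trims methyl groups from cell-wall pectin, read 8.70 and 8.78 in wild type, 8.97 and 9.17 in flu, 9.16 and 8.83 in ex1/flu, 9.91 and 9.61 in ex2/flu and 8.52 and 8.64 in ex1/ex2/flu. The ex2/flu arrays lay above and the ex1/ex2/flu arrays below those of all remaining genotypes, and flu and ex1/flu overlapped. AT1G59910, a formin, a class of proteins that assemble actin filaments, was the named member nearest to flu, with a difference of 0.23.

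Several members belong to families that handle lipids, metals or proteins, and AT1G55450 and AT2G07707 were grouped with them. AT4G39670, of the glycolipid transfer protein family, stood at 9.82 and 9.19 in wild type, 10.04 and 10.46 in flu, 8.77 and 9.00 in ex1/flu, 11.05 and 11.23 in ex2/flu and 9.46 and 8.90 in ex1/ex2/flu. It was the member with the lowest ex1/flu value relative to wild type, -0.61, both ex1/flu arrays lying below both of wild type. AT1G19970, of the receptor family that retains proteins in the endoplasmic reticulum, was 0.50 above flu in ex2/flu, AT5G52760 and AT2G36950, both with a heavy-metal-associated domain, 0.62 and 0.24, and AT3G59080, an aspartyl protease, 0.39. AT5G25170, of the PPPDE family of putative thiol peptidases, was 0.62 above flu, AT1G55450, a methyltransferase of the S-adenosylmethionine-dependent type, 0.28, and AT2G07707, which encodes a subunit of the mitochondrial ATP synthase type, 0.57. The suffix _s_at of this last probe set marks probes shared by more than a single transcript.

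Besides AT4G33960 and AT5G17350, 7 named members have no role given here. AT1G19020 stood at 11.57 and 10.92 in wild type, 11.45 and 11.98 in flu, 10.78 and 11.25 in ex1/flu, 12.50 and 12.44 in ex2/flu and 11.48 and 11.00 in ex1/ex2/flu. Its flu arrays overlapped wild type, and so did those of ex1/flu and ex1/ex2/flu. AT1G58420, AT5G16200 and AT1G69890 were 0.66, 0.61 and 0.57 above flu in ex2/flu, and AT2G36220, AT3G19030 and ZCF37 0.37, 0.30 and 0.28. AT3G19030 lies on chromosome 3, the chromosome of FLU, 549 protein-coding genes from it, and whether Landsberg sequence remains there was not tested. Over the 15 unlisted probe sets the difference of ex2/flu from flu was 0.20 to 1.16 with a median of 0.58, against a median of 0.49 over the 28 named genes.

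**Figure D2:**
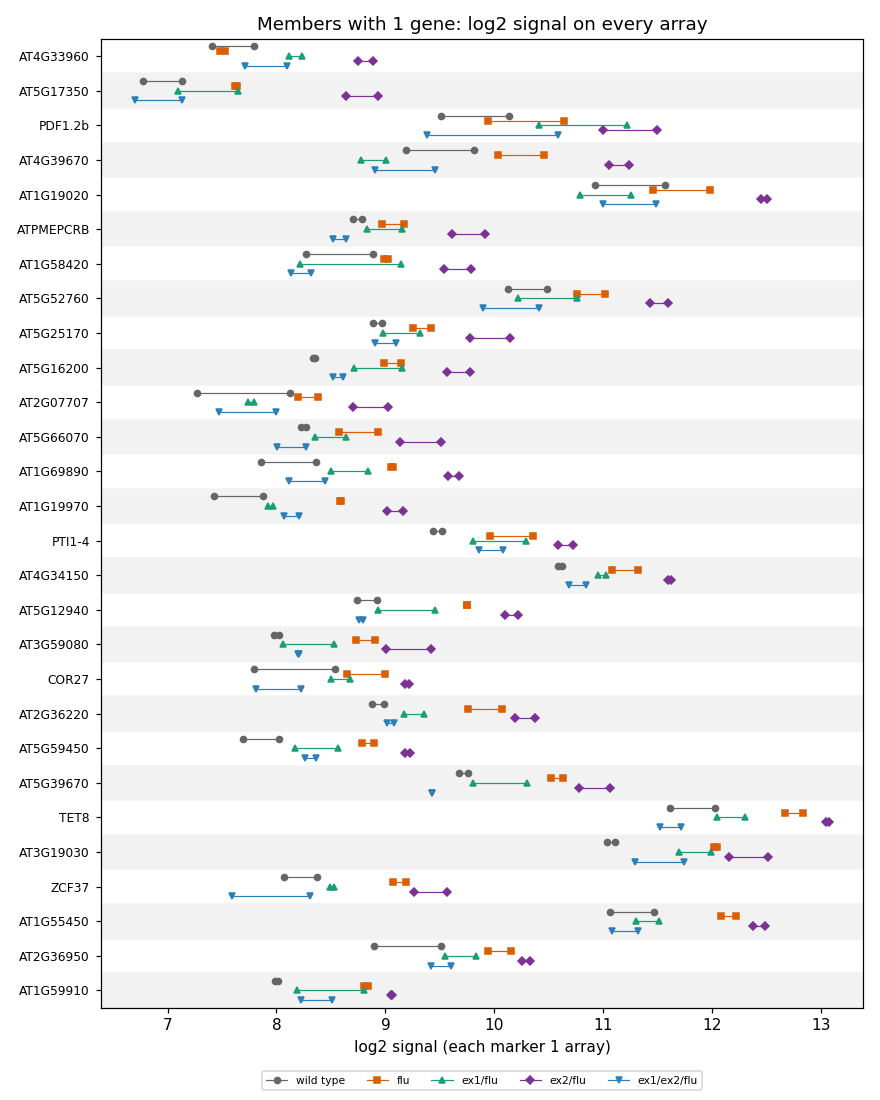
Log2 signal (x axis) of the 28 members assigned to 1 gene, with a marker for each of the 2 arrays of each genotype and a line joining them, ordered by the difference of ex2/flu from flu. The ex2/flu diamonds lie to the right of all wild type and flu markers in every row, as the rule requires. The difference of means falls from AT4G33960 at the top (1.31) to AT1G59910 at the bottom (0.23). The gap between the markers does not fall evenly, being 1.00 for AT5G17350, 0.07 for ZCF37 and 0.21 for AT1G59910.

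The distance between ex2/flu and flu, 0.53 in the median, depended on which flu array was taken. Over the 45 members, flu 2 was higher than flu 1 for 39, with a median difference of 0.21, whereas flu 2 was the higher array for 48.6% of all tested probe sets. Taken against flu 1 alone, the ex2/flu mean was higher by a median of 0.64 and against flu 2 alone by 0.39. The gap from the lower ex2/flu array to the highest wild type or flu array was 0.02 to 1.00, with a median of 0.25, and was under 0.1 for 6 members. The median standard deviation between replicates over the members was 0.15 in flu and 0.13 in ex2/flu, and 0.21 in wild type and in ex1/flu.

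The controls added before labelling differed between the arrays of a genotype as well as between genotypes. Their mean log2 signal was 7.08 in ex2/flu, 7.30 in flu, 7.42 in ex1/flu, 7.46 in wild type and 7.67 in ex1/ex2/flu, so ex2/flu was lowest. The ex2/flu arrays stood at 7.42 and 6.73 and the flu arrays at 7.60 and 6.99. Only ex1/ex2/flu had both arrays high, at 7.74 and 7.60. Within the arrays of low control signal the median difference of ex2/flu from wild type over the members was 1.22 (ex2/flu 2 against wild type 1), and within those of high control signal 1.30 (ex2/flu 1 against wild type 2). The difference of ex2/flu from flu was 0.40 within the low and 0.58 within the high arrays. The members were above flu in both cases, a direction the rule fixes. Control signal was not equal within the low or the high arrays. It was 6.73 for ex2/flu 2 against 7.11 for wild type 1, and 7.42 for ex2/flu 1 against 7.81 for wild type 2.

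To measure the difference on arrays that did not choose the genes, the thresholds were applied to the arrays numbered 1 alone and read on those numbered 2, and the reverse. With selection on number 1, 68 probe sets met the thresholds with a median difference of ex2/flu from flu of 0.62, and on the arrays numbered 2 their median difference was 0.23. With selection on number 2, 74 met them at 0.48, and on number 1 they stood at 0.22. On the arrays not used for selection ex2/flu was above flu for 54 of 68 (79.4%, against 48.8% of all probe sets at the level) and for 60 of 74 (81.1%, against 52.5%). Each selection held 23 of the 45 members. The sizes printed for the members above therefore include what selection adds. The direction was seen for about 4 in 5 probe sets of the single-array selections, most of which were not members. All these arrays were in the rule for the members, so this is no test of the members' direction. In flu these probe sets stood 1.01 and 0.48 above wild type on the unused arrays, so on number 2 the first selection was no longer below the flu threshold of 1 in the median. ex2/flu 1 and flu 1 both had high control signal and ex2/flu 2 and flu 2 both low. Each wild type array had the level opposite to the ex2/flu and flu arrays of its number.

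In the lines without EX1 the members mostly stood between wild type and flu or near wild type. In 44 of 45 members ex2/flu had the highest mean, and in 41 flu had the second highest. The ex1/flu mean lay between wild type and flu for 36 members, above flu for 4 and at or below wild type for 5. The lowest mean was that of wild type for 23 members, ex1/ex2/flu for 16, ex1/flu for 5 and flu for 1. Over the 45 members the median difference from wild type was 0.33 in ex1/flu and 0.05 in ex1/ex2/flu, beside -0.02 and 0.01 over all tested probe sets. The ex1/ex2/flu mean was within 0.5 of wild type for 42 members.

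The 4 members with ex1/flu above flu were AT4G33960, PDF1.2b and 2 unlisted probe sets. In 1 of the latter, ex1/flu stood above ex2/flu too, at 11.34 and 11.64 against 11.27 and 11.13, with 9.35 and 10.08 in wild type. The 5 at or below wild type were AT4G39670, AT1G19020, 1 unlisted probe set and the 2 that match several genes. Members with a similar value in ex2/flu thus covered the whole range from below wild type to above flu in ex1/flu.

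**Figure D3:**
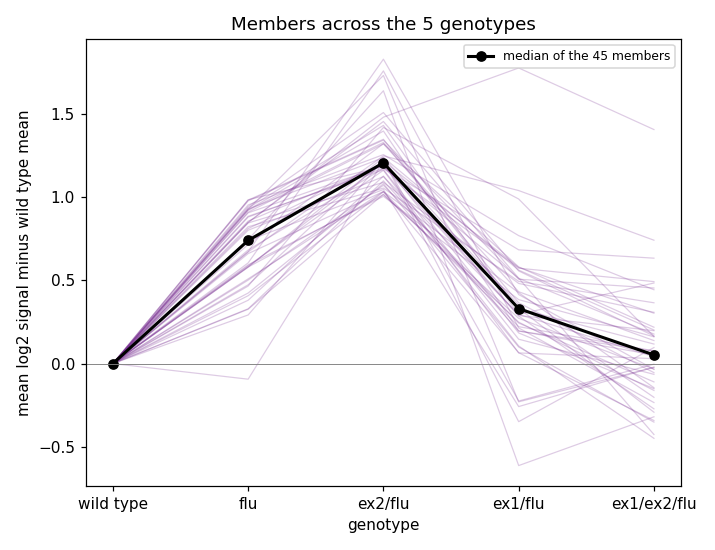
Mean log2 signal of each of the 45 members minus its wild type mean (y axis) in the 5 genotypes (x axis), with the median over the members in black. The median goes from 0.74 in flu and 1.21 in ex2/flu to 0.33 in ex1/flu and 0.05 in ex1/ex2/flu, and a single member stays highest in ex1/flu.

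Set against wild type or flu, these lines share arrays with the rule, which placed wild type and flu below ex2/flu, so the following counts are descriptions. Both ex1/flu arrays were above both wild type arrays for 29 of 45 members (16.3% of all tested probe sets) and both ex1/ex2/flu arrays for 13 (21.9%). By limma, 3 members were called higher in ex1/flu than in wild type (0.72% of all tested) and 1 in ex1/ex2/flu (0.388%). Against flu, 4 were called lower in ex1/flu (1.14%) and 16 in ex1/ex2/flu (2.51%). In the contrasts the rule used, 45 were called higher in ex2/flu than in wild type (2.75%), 23 in flu than in wild type (2.83%) and 2 in ex2/flu than in flu (0.333%). Nothing is read from these last 3 counts.

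The comparison of ex1/ex2/flu with ex1/flu used none of the arrays in the rule and asks what losing EX2 does where EX1 is already lost. The deviations of arrays with the same number from their genotype mean correlated at 0.43 between ex1/flu and ex2/flu. Both ex1/ex2/flu arrays had high control signal, and ex1/flu 2 had low. What part either has in the counts that follow was not tested. No member was called (0 of 45, limma adjusted p 0.410 to 0.996), and of all 14435 probe sets 5 were called, each lower (0.0346%). The direction of these calls depended on single arrays: without ex1/flu 2, 6 of 7 calls were higher, without ex1/flu 1, 7 of 17, and without ex1/ex2/flu 2 the 1 call was higher. At an unadjusted limma p under 0.05, 10 members were lower and 0 higher, against 2.6% and 2.85% of all tested probe sets. The ex1/ex2/flu mean was below the ex1/flu mean for 39 of 45 members, which is 86.7%, against 45.4% of all tested probe sets. Both arrays of ex1/ex2/flu lay below both of ex1/flu for 22 members (48.9%, against 14.4%), and above them for 1 (against 2543 of the 14435). The median difference was -0.30 over the members and 0.02 over all tested probe sets, and it was -0.22 with ex1/flu 1 alone, the ex1/flu array whose control signal matched that of the ex1/ex2/flu arrays. Most members were therefore lower without EX2 in the ex1/flu background, while their choice makes them higher without EX2 in flu, and no single gene passed the test in the former.

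TET8 had a difference of -0.56 ± 0.15 (limma SE, n = 2 per genotype, adjusted p 0.416) and AT5G39670 of -0.63 ± 0.18 (adjusted p 0.483), with limma. PDF1.2b had the largest difference of the named genes at -0.83 ± 0.35, the spread of its ex1/ex2/flu arrays entering its wide error. COR27 was at -0.57 ± 0.23, ZCF37 at -0.56 ± 0.22, AT5G12940 at -0.42 ± 0.18 and ATPMEPCRB at -0.41 ± 0.17. The lowest value over all members was that of the unlisted probe set 261033_at, -0.94 ± 0.25 (limma adjusted p 0.41), with 8.99 and 9.57 in ex1/flu and 8.30 and 8.37 in ex1/ex2/flu. AT4G39670 (0.29 ± 0.23), AT1G19020 (0.22 ± 0.23) and AT1G19970 (0.19 ± 0.18) were the named members with a higher mean in ex1/ex2/flu, the first 2 being those with ex1/flu below wild type.

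**Figure D4:**
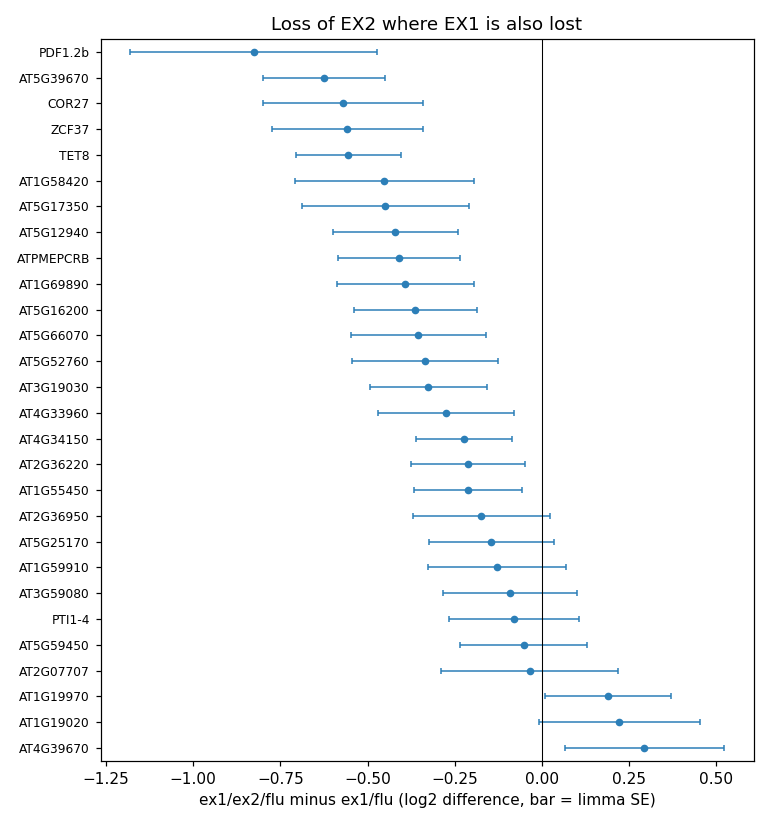
Difference in mean log2 signal of ex1/ex2/flu from ex1/flu (x axis) for the 28 named members, with bars of 1 limma standard error. The differences go from -0.83 (PDF1.2b) to 0.29 (AT4G39670), 25 of the 28 are below 0, and none passed the test.

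By kind of gene, the median of this difference was -0.49 over the 6 genes of signalling and defence, -0.35 over the 3 regulators, -0.27 over the 2 genes of wall and cytoskeleton, -0.12 over the 8 of lipid, metal and protein handling and -0.36 over the 9 without a role given here. All 6, 3 and 2 of the first 3 kinds, 6 of 8 and 8 of 9 were lower in ex1/ex2/flu. The grouping was made with these values in view, and the 8 include AT1G55450 and AT2G07707, which the name of their group does not describe.

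The same contrast was read for the 195 tested probe sets that were at least 2-fold higher in flu than in wild type, reached the same level in flu and had both flu arrays above wild type, a choice that uses neither line. Their median difference was -0.29, 157 (80.5%) had a lower mean in ex1/ex2/flu and 94 (48.2%) had both arrays lower, close to the values of the members. Of these, 3 were called lower by limma, and at an unadjusted limma p under 0.05, 63 (32.3%) were lower and 6 higher, against 10 (22.2%) and 0 of the members. They stood 0.65 above wild type in ex1/flu and 0.43 in ex1/ex2/flu in the median, where the members stood at 0.33 and 0.05. In flu itself they stood at 1.46 and the members at 0.74, a gap set by the 2 choices. The levels in the other lines are therefore not compared like with like. Their ex2/flu mean was above flu for 128 of 195, with a median difference of 0.19.

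Other genes of stress and hormone pathways were read from lists that, together with the tissue markers, held 161 loci. Of these, 23 were measured by a probe set of their own, the 2 leaf markers included, and 0 of the members were on the lists. Of all tested probe sets 1.04% were called between ex2/flu and flu in either direction, and 0.333% higher in ex2/flu. Of 4 measured touch-responsive genes (CML37, CML38, XTH18 and XTH19), 2 were called higher in ex2/flu than in flu by limma, XTH18 by 1.50 ± 0.28 and XTH19 by 1.26 ± 0.17 (n = 2 per genotype), and the 2 calcium sensors were not called (1.07 ± 0.31 for CML38 and 0.94 ± 0.29 for CML37). XTH19 met the numeric thresholds of the members, so its call is no independent one. The median over these 4 of 10 listed touch loci was 1.17, beside -0.01 over all tested probe sets. The lists were chosen with earlier results of these data known, so this median is a description. Of 4 cold and drought genes, COR15B was called higher than in flu (1.00 ± 0.19), its ex2/flu value being 0.41 above wild type and not called, while COR15A, COR47 and LTI30 were not called. The leaf marker LHCB4.2 was called lower in flu than in wild type (-1.02 ± 0.12) and higher in ex2/flu than in flu (1.04 ± 0.12). RCA was not called in either contrast. Between ex2/flu and flu, 0 of 3 stress WRKY factors, 0 of 3 auxin genes and 0 of 4 singlet oxygen reporters were called in either direction. Nor were the single measured genes of the jasmonate (OPCL1), ethylene (EIN3), zinc-finger (ZAT10) and salicylate (SAG101) lists, ZAT10 being also 1 of the reporters. The 4 reporters differed by -0.12 (AAA-ATPase) to 0.84 (AT1G05575), with a median of 0.51. The median was 0.53 over the 45 members, of which 2 were called. Of 9 heat shock and 7 mitogen-activated kinase loci listed, 0 were measured by a probe set of their own. The annotation used did not list 8730 probe sets, so this does not mean that the array lacks these genes. For ex1/ex2/flu against ex1/flu, 0 of the 23 list loci, the 2 leaf markers included, were called, and XTH18 (0.83 ± 0.28) and XTH19 (-1.02 ± 0.17), neighbours on chromosome 4, differed in sign.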

How the data were processed

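RNA from 10 samples was hybridised to ATH1 arrays. The deposited table holds 1 linear signal intensity per probe set and array, made by the authors with GCOS 1.2 and MAS5, per the submitters' processing notes. The scaling target, background settings and genome build were not given in the sources used here. Detection calls were not used.

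Signals were taken to log2 with no offset. After removal of 64 control probe sets 22746 remained, of which 14435 (63.5%) reached their array's 40th percentile on 2 or more arrays and were tested. The model, fitted with limma 3.58.1 in R 4.3.3, held a mean for each genotype over all 10 arrays and an intensity trend (5 residual degrees of freedom, prior 10), with Benjamini-Hochberg adjustment over the 14435 and a threshold of 0.05. The spread was thus partly estimated from arrays in the rule, and a fit on the 4 arrays compared was an alternative. The fit was tested on simulated data. Figures used Python 3.11.15 and matplotlib 3.10.9. The number of arrays limits the precision.

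Of the table's probe sets 13513 had 1 gene in the annotation, 503 several and 8730 were not listed. Names and gene order come from the RefSeq table of TAIR10.1, where all 28 members with 1 gene matched. All of these were named, with the nearest genes on each side of the thresholds and those left out by symbol. The 2 unlisted probe sets, and the role groups, were chosen after their values were seen. The members and gene lists were chosen with earlier results of these data known. Promoter motifs were not analysed here. Deviations of arrays with the same replicate number correlated at 0.43 between ex1/flu and ex2/flu and at -0.09 to 0.09 between the other genotypes. The numbers were therefore not taken to pair the arrays of all genotypes. What ex1/flu and ex2/flu share by number was not modelled in the main fit, and a replicate block was an alternative.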

Additional observations from a re-analysis of the deposited data

Results flagged for a closer look

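For 22 of the 45 members the 2 lines that lose EX2 went opposite ways: both ex2/flu arrays were above both flu arrays, and both ex1/ex2/flu arrays were below both ex1/flu arrays. The first direction is set by the choice of the members and the difference between the 2 was not tested. Among all tested probe sets, 21.7% had both ex2/flu arrays above flu and 14.4% had both ex1/ex2/flu arrays below ex1/flu. The latter held for 94 of the 195 probe sets induced in flu (48.2%), close to the 22 of 45 members (48.9%), so it is not particular to the members. Of the 22, 12 are named genes, and the largest contrast among these was that of AT4G33960 (1.31 and -0.28), followed by ATPMEPCRB (0.69 and -0.41).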

How the results depend on the processing

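In ex1/ex2/flu against ex1/flu, 0 members were called by limma in every alternative run, including each array left out, with 5 to 16 members lower at an unadjusted p under 0.05 and a lowest adjusted p of 0.083 (without ex1/flu 1). The 5 calls over all probe sets became 0 with no filter (606 lower at an unadjusted p under 0.05), with no trend (367 lower) and with the controls added before labelling as a block (318 lower), and 1 with only the 4 arrays compared or with a block for hybridization controls, which set wild type 2 apart alone. Leaving out 1 array gave 0 (either flu array, 345 and 346 lower at an unadjusted p under 0.05) to 17 (without ex1/flu 1), with 1 call without either wild type array or ex1/ex2/flu 2. The calls were not all lower without ex1/flu 1 (7 of 17 higher), ex1/flu 2 (6 of 7), either ex2/flu array (1 of 7) or ex1/ex2/flu 2 (1 of 1). With the replicate block 6 probe sets and 0 members were called. The members' median in this contrast was -0.32 to -0.19 without 1 array. That of ex1/flu minus wild type was 0.27 to 0.38, and that of ex1/ex2/flu minus wild type -0.046 (without wild type 2, which turns its sign) to 0.15. Quantile normalization gave 45 members, 42 of them shared, an offset of 32 gave 44 (38 shared), leaving out PDF1.2b 44, and a threshold of 1.2 in ex2/flu 25. The block for controls added before labelling and the omission of PDF1.2b were chosen after seeing the data. The causes of these shifts were not tested. Without detection calls, signal over background could not be judged per probe set.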

Other observations

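Genes next to the members on the chromosome mostly had no such difference from wild type. Of the immediate protein-coding neighbours of the named members, 17 were measured by a probe set of their own, beside 15 members, and their median difference of ex2/flu from wild type was 0.067, with a range of -0.61 to 1.92. By limma 2 of the 17 were called higher (2.75% of all tested probe sets), RXF26 beside AT1G58420 (1.92, adjusted p 0.00572) and AT5G52750 beside AT5G52760 (1.36, adjusted p 0.00187). Both were also at least 2-fold higher in flu (1.84 and 1.09), so they were not members. AT4G39675, beside AT4G39670, differed from wild type by 0.92 in flu and by 0.055 in ex2/flu, where AT4G39670 itself differed by 0.75 and 1.64. Adjacent genes can overlap, and the strand of the probes was not examined.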
